A study of Mus musculus with 6 samples.

Results

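Core pluripotency factors are the transcription factors and chromatin proteins that embryonic stem cells rely on to renew themselves without differentiating. The 10 genes described here were taken by symbol: Pou5f1 (OCT4), Sox2, Nanog, Sall4, Utf1, Zfp281, Foxd3, Dppa2, Dppa4 and Dppa5a. All 10 were among the 33924 gene symbols counted in every library, and all 10 were among the 14250 genes that passed a filter on low counts. RNA was sequenced from the mouse embryonic stem cell line E14 in 3 libraries labelled control (WT) and 3 labelled Rif1-KO, and the series asks what loss of Rif1 does to gene expression. RIF1 binds chromatin and is best known for setting when DNA replicates and for its work at DNA breaks. Both groups are labelled as grown on gelatin in 2i, a medium whose kinase inhibitors hold cells in naive pluripotency. Every library carries a treatment text of 2 days with 4-hydroxytamoxifen (4-OHT, 0.1 µM) followed by a day off the drug. The file headers, however, name 2i for control and TAM for Rif1-KO, so it is unclear if control cells also received the drug or if the media differed. The labels do not state the way Rif1 was disrupted or the number of clones behind each group.

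OCT4 and SOX2 bind DNA as a pair at a joined element, an octamer next to a SOX motif, which is found near Nanog and near their own genes. NANOG steadies the naive state and binds many of the same sites, and SALL4, a zinc finger protein, works with OCT4 and NANOG. UTF1 is a chromatin-bound protein and a classic target of the OCT4-SOX2 pair, FOXD3 is a forkhead factor and ZFP281 a zinc finger factor that help cells move toward the primed state. DPPA2 and DPPA4 form a pair of chromatin proteins that keep developmental promoters open to activation and act upstream of Dux and the genes of the 2-cell embryo. DPPA5A is an RNA-binding protein marking pluripotent cells.

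The promoter windows of the trio are shown because their RNA levels were called differently below. The call of Nanog held in only 7 of 15 alternative fits. Any link between the windows and the RNA levels was not tested. RefSeq (GRCm38.p6) windows of 250 bases before to 50 after a gene's start were found for 6 of the 10 members, in 8 windows. Capitals mark the octamer core (TTTGCAT) and the SOX core (ACAAT), searched on both strands. Each window lies on the plus strand.
Nanog, chr6:122707315-122707614: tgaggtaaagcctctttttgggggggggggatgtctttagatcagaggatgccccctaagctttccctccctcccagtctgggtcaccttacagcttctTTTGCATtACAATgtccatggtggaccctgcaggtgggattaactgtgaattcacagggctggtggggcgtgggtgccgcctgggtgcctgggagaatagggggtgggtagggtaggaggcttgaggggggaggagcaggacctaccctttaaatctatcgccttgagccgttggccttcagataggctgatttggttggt
Sox2, chr3:34649745-34650044: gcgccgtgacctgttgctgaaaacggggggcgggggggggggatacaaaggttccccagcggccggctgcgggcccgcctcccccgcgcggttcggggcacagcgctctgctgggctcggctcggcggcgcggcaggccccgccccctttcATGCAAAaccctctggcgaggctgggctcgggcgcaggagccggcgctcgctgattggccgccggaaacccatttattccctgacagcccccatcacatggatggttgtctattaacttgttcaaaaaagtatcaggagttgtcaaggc
Pou5f1, chr17:35505782-35506081: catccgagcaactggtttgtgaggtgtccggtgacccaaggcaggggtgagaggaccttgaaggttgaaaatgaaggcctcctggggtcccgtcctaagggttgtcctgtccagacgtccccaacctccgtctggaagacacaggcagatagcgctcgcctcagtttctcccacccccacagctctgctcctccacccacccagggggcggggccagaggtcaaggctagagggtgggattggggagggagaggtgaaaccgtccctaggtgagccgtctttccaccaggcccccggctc
The Nanog window holds both cores 1 base apart, with the octamer core beginning 151 bases before this start and the SOX core 143. That joined form (the octamer core, any 1 base, then the SOX core, so that it contains both single cores) was in 8 of 32544 distinct windows over the whole table (0.0246%), and 2 of those 8 are the overlapping windows of Nanog's 2 listed starts. The octamer core, joined or not, was in 4.65% of all windows and the SOX core in 30.8%. Sox2 has the octamer core on the other strand, beginning 99 bases before the start, and no SOX core, and the printed Pou5f1 window has neither. The second, more internal Pou5f1 window held a SOX core, and the windows of Utf1, Zfp281 and Foxd3 held neither core. These are matches of letters in short windows. The distal enhancers of these genes lie outside them.

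Total counts per library ran from 8383632 to 10980777. Levels are CPM, the counts scaled to library totals after TMM adjustment, which evens out differences in composition between libraries. Genes were compared with edgeR's quasi-likelihood test over all 14250 tested genes, and "rose" or "fell" means a Benjamini-Hochberg adjusted p under 0.05. Fold changes are Rif1-KO-labelled libraries over control. Separate cultures are not named for the replicates in the labels. The p-values therefore cover only the spread among these samples, which may be technical. Rif1 itself stood at 673, 657 and 700.1 CPM in control and at 602, 604 and 664 CPM in the Rif1-KO-labelled libraries, so the groups overlapped (log2 fold change −0.12 ± 0.05 SE, adjusted p = 0.0509 by edgeR). It was called as lower in 8 of 15 alternatives, with −0.31 after an offset for GC content and length. Counts summed over all exons do not reveal a loss of single exons, so group names here follow the labels only.

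The 10 factors split 3 ways. Nanog, Dppa2, Dppa4 and Dppa5a rose, Sox2, Sall4 and Utf1 fell, and Pou5f1, Zfp281 and Foxd3 did not pass the test. That makes 7 of 10 called, in an experiment where 50.9% of all tested genes were called, 26.1% as higher and 24.8% as lower. Tested against a fold of 1.2 in place of no change (edgeR's glmTreat), 5 of the 10 were called, against 22.8% of all tested genes. The groups' libraries did not overlap at 8 of the 10, against 57.2% of all tested genes. The members' median log2 fold change was −0.04, beside 0.003 for all tested genes, and the median size of change, whatever its sign, was 0.38, beside 0.25. The 10 genes summed to 3304 ± 121 CPM in control, beside 3306 ± 154 CPM in the Rif1-KO-labelled libraries (SD, n = 3). That near-equal total rests on Dppa5a, whose mean went from 804 ± 117 to 1108 ± 144 CPM. Dppa5a was also the most variable of the abundant factors and shared part of its sequence with other transcripts. In bulk RNA, fewer cells that express a gene and less RNA per cell cannot be told apart.

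**Figure D1:**
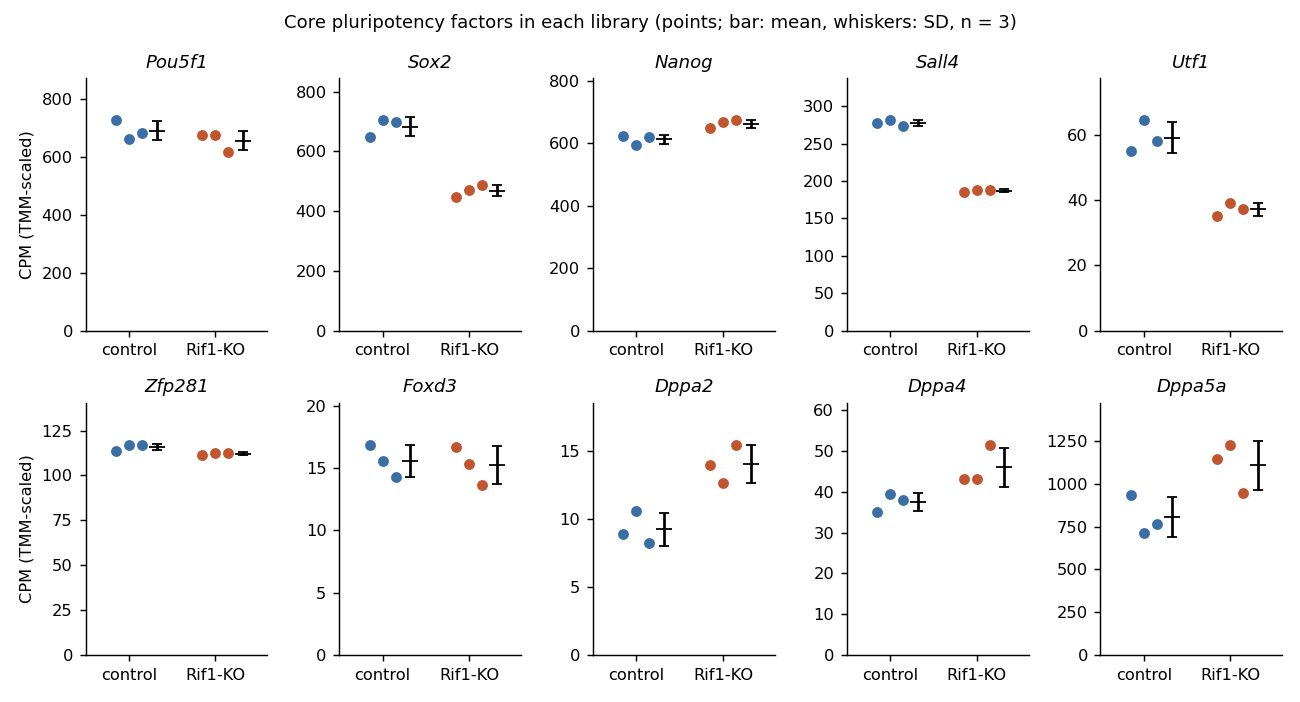
Levels of the 10 factors in each library, in CPM after TMM scaling, on axes that start at 0. Points are single libraries and the bar with whiskers is the mean and SD (n = 3). The points of the 2 groups are well apart for Sox2, Sall4 and Utf1 and intermixed for Pou5f1 and Foxd3.

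**Figure D2:**
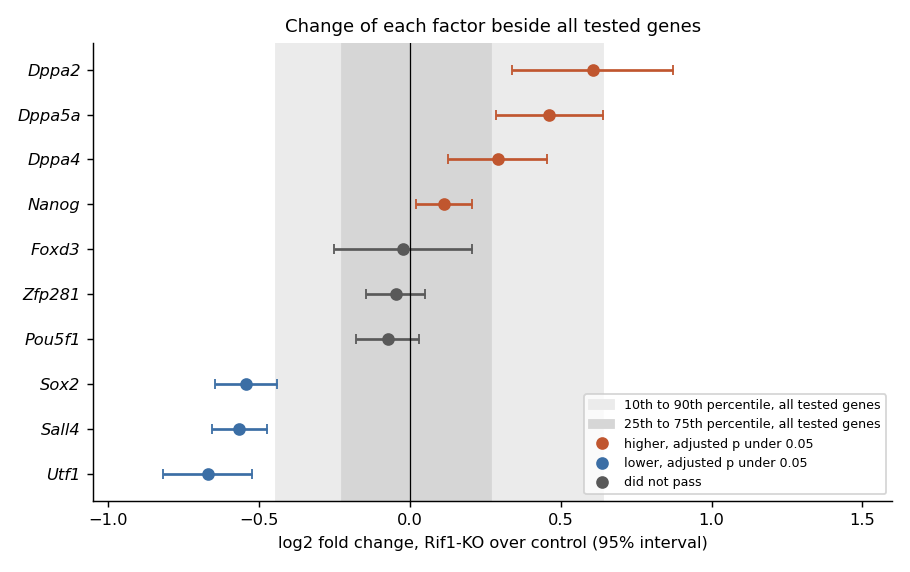
Log2 fold changes of the 10 factors with 95% intervals, coloured by call. The darker band spans the 25th to 75th percentile of all tested genes (−0.23 to 0.27) and the lighter band the 10th to 90th (−0.45 to 0.64). Sox2, Sall4 and Utf1 lie below the lighter band, and Nanog lies inside the darker one.

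Within the trio, Pou5f1 did not pass, Sox2 fell and Nanog rose slightly. Pou5f1 was read at 726, 661 and 684 CPM in control and at 676, 674 and 617 CPM in the Rif1-KO-labelled libraries. Those ranges overlap, and the fold interval ran from 0.884 to 1.02 (log2 fold change −0.07 ± 0.05 SE, adjusted p = 0.232 by edgeR). Missing the threshold does not show that its level was equal.

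Sox2 was read at 647, 704 and 700 CPM in control and at 449, 470 and 487 CPM in the Rif1-KO-labelled libraries. Each control library was above each Rif1-KO-labelled library. The mean went from 683 ± 31.8 to 469 ± 19.4 CPM (SD, n = 3), 0.686 of the control level, with an interval of 0.639 to 0.736 (log2 fold change −0.54 ± 0.05 SE, adjusted p = 1.78e-08 by edgeR). Only 6.46% of the tested genes had a lower log2 fold change. Sox2 lies inside the long noncoding gene Sox2ot on the same strand, which itself fell and was read at 4.38 ± 0.747 CPM in control and 2.83 ± 0.529 CPM in the Rif1-KO-labelled libraries.

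Nanog was read at 621, 595 and 619 CPM in control and at 648, 666 and 672 CPM in the Rif1-KO-labelled libraries. The groups did not overlap, but the gap was narrow beside that of Sox2. Its rise was 1.08-fold, with an interval of 1.02 to 1.15 (log2 fold change 0.11 ± 0.04 SE, adjusted p = 0.0387 by edgeR). This call was lost in 8 of 15 alternatives, among them the fit without control replicate 2 (0.09, adjusted p = 0.121), without control replicate 3 (0.12, adjusted p = 0.0963), or with Rif1-KO replicate 1, 2 or 3 left out (adjusted p = 0.0641, 0.1 and 0.0694). Over all 15 the log2 fold change stayed positive, from 0.05 to 0.13, with adjusted p from 0.017 to 1.

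Because these 3 factors bind together, their levels were also set against each other within each library, as ratios of CPM per kilobase of exon. The ratio of Nanog to Sox2 was 0.881, 0.776 and 0.812 in control and 1.33, 1.30 and 1.27 in the Rif1-KO-labelled libraries. Sox2 was thus the higher of the pair in every control library and Nanog in every Rif1-KO-labelled library. The ratio of Sox2 to Pou5f1 went from 0.658 ± 0.06 to 0.475 ± 0.043 on average, and that of Nanog to Pou5f1 went from 0.539 ± 0.0166 to 0.615 ± 0.0414 (SD, n = 3). Exact two-sided permutation tests gave p = 0.1 for each of these 3 ratios, which is the smallest p that 3 libraries against 3 allow. Over 6 such ratios the Benjamini-Hochberg adjusted exact p was 0.12 for these 3. A ratio shows unequal change of its members and does not say which one moved.

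**Figure D3:**
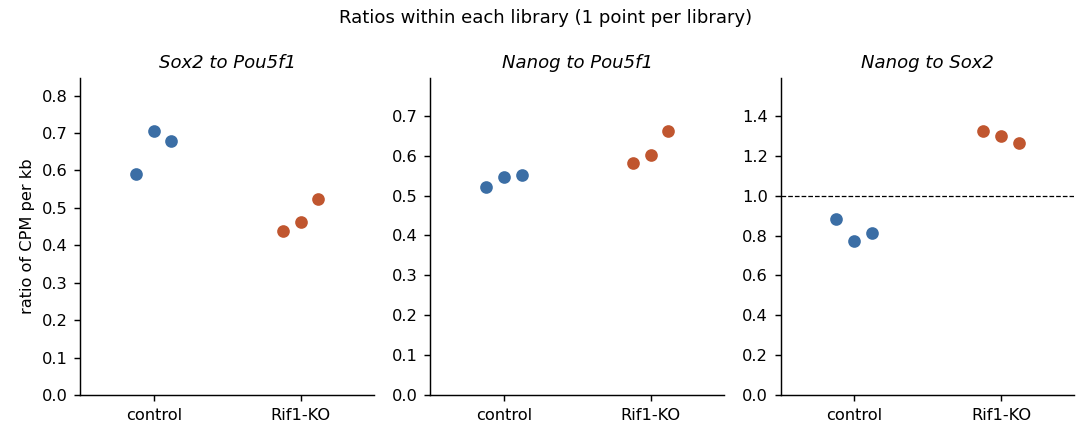
Ratios of CPM per kilobase between the trio's members, 1 point per library, on axes that start at 0. In the panel of Nanog to Sox2 the dashed line marks equal levels per length, with the control libraries at 0.776 to 0.881 and the Rif1-KO-labelled libraries at 1.27 to 1.33.

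Per kilobase of exon, the factors covered a wide range of levels. Dppa5a led in control with 1299 ± 188 CPM per kilobase, followed by Pou5f1 at 507 ± 24.1, Sox2 at 332 ± 15.5 and Nanog at 273 ± 6.57 CPM per kilobase (SD, n = 3). Sall4 had 54.6 ± 0.768, Utf1 48.3 ± 3.90, Dppa4 25.4 ± 1.46 and Zfp281 23.5 ± 0.378 CPM per kilobase. Foxd3, at 6.70 ± 0.559, and Dppa2, at 3.76 ± 0.502 CPM per kilobase, were lowest. In control, no library of a gene in this order overlapped a library of the next gene down, although the libraries of Dppa4 (23.8 to 26.6) and Zfp281 (23.0 to 23.7) nearly touched. Pou5f1 was above 99.5% of 13937 tested genes with a known length in this measure, and Dppa2 above 32.2%. In the Rif1-KO-labelled libraries the order changed at 2 places: Nanog stood above Sox2, and Dppa4, at 31.1 ± 3.24, above Utf1, at 30.3 ± 1.61 CPM per kilobase, though the libraries of Dppa4 and Utf1 overlapped there, as did those of Foxd3 and Dppa2. Exon lengths come from GENCODE M21 on GRCm38, another build than the mm9 of the counting, so the levels per length are approximate. The longest transcript was as long as the summed exons for every member but Nanog (2211 against 2242 bases). Ranking by it gave the same order in control, which does not check the lengths.

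**Figure D4:**
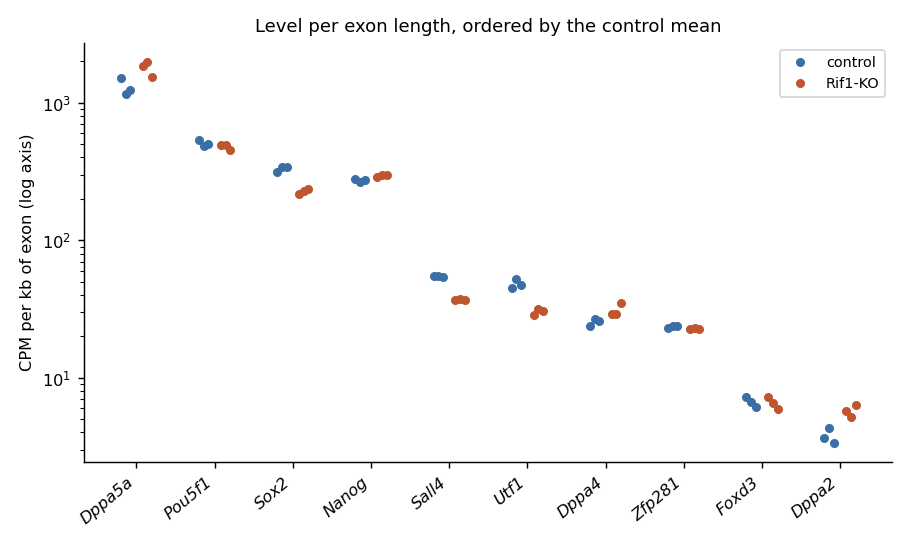
CPM per kilobase of exon on a log axis for each factor, ordered by the control mean, with 1 point per library. The points of Sox2 drop below those of Nanog in the Rif1-KO-labelled libraries, and Dppa5a is the highest factor in all 6 libraries.

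Among the other transcription factors of the network, Sall4 and Utf1 fell while Zfp281 and Foxd3 did not pass. Sall4 was read at 277, 281 and 273 CPM in control and at 186, 188 and 188 CPM in the Rif1-KO-labelled libraries. Both groups were tight, with an SD of 1.41% and 0.761% of the mean, and they lay far apart, at 0.676 of the control level (interval 0.635 to 0.719). Its log2 fold change of −0.57 ± 0.04 SE had the smallest adjusted p of the 10, 1.78e-09 by edgeR.

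Utf1 had the steepest fall of the 10. It was read at 55.1, 64.5 and 58.2 CPM in control and at 35.2, 39.1 and 37.4 CPM in the Rif1-KO-labelled libraries, without overlap. The level was 0.628 of control (interval 0.567 to 0.696, log2 fold change −0.67 ± 0.07 SE, adjusted p = 1.78e-07 by edgeR). Its ratio to Sox2 per kilobase was 0.145 ± 0.00745 in control and 0.133 ± 0.0056 in the Rif1-KO-labelled libraries, and the groups just overlapped in this ratio (exact two-sided permutation p = 0.2). Sox2, Sall4 and Utf1 kept their direction and passed in all 15 alternatives.

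Zfp281 was read at 114, 117 and 117 CPM in control and at 111, 113 and 113 CPM in the Rif1-KO-labelled libraries. The groups just missed each other, by a margin small beside the levels (fold interval 0.905 to 1.04, log2 fold change −0.05 ± 0.05 SE, adjusted p = 0.426 by edgeR). With an offset for GC content and length it was called as lower (log2 fold change −0.17, adjusted p = 0.00339). Foxd3 was read at 16.9, 15.6 and 14.3 CPM in control and at 16.7, 15.4 and 13.7 CPM in the Rif1-KO-labelled libraries, fully intermixed (adjusted p = 0.874 by edgeR). With 413 and 462 counts over the groups, its fold interval was wide, from 0.84 to 1.15, and its log2 fold change ran from −0.099 to 0.061 over 15 alternatives.

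The 3 Dppa genes rose, Dppa2 by the largest factor. Dppa2, the lowest of the 10 per length, was read at 8.87, 10.6 and 8.19 CPM in control and at 13.9, 12.6 and 15.4 CPM in the Rif1-KO-labelled libraries. Those values rest on 74 to 87 and on 125 to 154 counts per library. The groups did not overlap, and the rise was 1.52-fold (interval 1.27 to 1.83, log2 fold change 0.61 ± 0.13 SE, adjusted p = 0.000501 by edgeR).

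Dppa4, its partner and neighbour on chromosome 16, was read at 35.1, 39.4 and 38.1 CPM in control and at 43.2, 43.2 and 51.5 CPM in the Rif1-KO-labelled libraries. The third Rif1-KO-labelled library stood above the other two, and all 3 were above control (1.23-fold, interval 1.09 to 1.37, log2 fold change 0.29 ± 0.08 SE, adjusted p = 0.00411 by edgeR). Tested against a fold of 1.2, Dppa4 did not pass (adjusted p = 0.406), whereas Dppa2 did. The ratio of Dppa2 to Dppa4 per kilobase was 0.148 ± 0.0166 in control and 0.184 ± 0.0095 in the Rif1-KO-labelled libraries (SD, n = 3), with the same smallest p of 0.1 in the exact permutation test.

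Dppa5a was the most variable of the abundant factors. It was read at 935, 711 and 767 CPM in control and at 1147, 1229 and 948 CPM in the Rif1-KO-labelled libraries. The highest control library and the lowest Rif1-KO-labelled library nearly met, and the SD was 14.5% and 13.02% of the mean. The rise was 1.38-fold (interval 1.22 to 1.56, log2 fold change 0.46 ± 0.09 SE, adjusted p = 0.000136 by edgeR), and it passed in all 15 alternatives, as did that of Dppa2.

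Several members share sequence with transcripts of other genes, so that reads could be lost or shared. Of their 50-base stretches, Dppa5a shared 38.6% with transcripts of other genes, Dppa4 31.3% and Dppa2 29.1%. Nanog shared 4.53%, Foxd3 2.59% and Pou5f1 0.561%, and Sox2, Sall4, Utf1 and Zfp281 shared none. The shared stretches of Nanog were spread over 24 other genes. Of the 59 of Foxd3, 40 were shared with Gm23366, which overlaps Foxd3 itself on the same strand. Not all of the genes sharing stretches were in the table, and counts of those outside it are not analysed here. For Dppa5a, 7 of 9 were in it and held 383 counts in control against 21430 for Dppa5a. In the Rif1-KO-labelled libraries they held 517 against 33531. Pigp alone held 344 and 458 of these counts, so the totals mostly measure that gene. For Dppa4, both were in the table and held 27 counts against 993 and 45 against 1377. For Dppa2, 3 of 7 were in it and held 6 counts against 243 and 5 against 420. The counting of reads with several matches is not described in the labels or notes. The values of the 3 Dppa genes are therefore less certain than those of members that shared no stretch. Only annotated transcripts, in their own orientation, were searched, so members without a shared stretch may still match elsewhere in the genome.

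Nearby genes did not share one direction with the factors. The nearest tested gene on each side of each member gave 18 distinct neighbours beside the members themselves, of which 5 rose, 6 fell and 7 did not pass. That is 61.1% called, against 50.9% of all tested genes. Slc2a3, a glucose transporter gene next to Nanog, rose from 2017 ± 166 to 3284 ± 170.4 CPM (mean ± SD of 3 libraries, log2 fold change 0.70 ± 0.06 SE). Morc1, a silencing factor gene beside the risen Dppa2, fell by 0.53 ± 0.05 (SE) on the log2 scale. Gm12688, beside Foxd3, rose by 0.43 ± 0.14 (SE). These neighbours and the neighbour count were chosen after values were seen. Of the other genes whose windows held the joined octamer and SOX element, Pipox fell from 86.05 ± 2.72 to 51.99 ± 2.63 CPM, and Exoc1 (77.7 ± 3.91 and 78.5 ± 2.996 CPM) and Nrarp (10.3 ± 0.735 and 8.89 ± 0.687 CPM) did not pass.

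Genes known as targets of the OCT4-SOX2 pair were called as lower more often than as higher. Of 20 listed and tested, 13 fell, 4 rose and 3 did not pass, where 24.8% of all tested genes fell and 26.1% rose. They had a median log2 fold change of −0.35, beside 0.003 for all tested genes. This list, like the others here, was chosen with earlier results of these data known. It also shares genes, such as Zfp42, with the lists of naive factors and partners below, so the lists are not independent. Mycn, a growth-promoting transcription factor gene, fell from 110.2 ± 6.93 to 51.5 ± 3.39 CPM (mean ± SD of 3 libraries, log2 fold change −1.10 ± 0.06 SE). Zscan10, a zinc finger factor gene of stem cells, fell from 99.2 ± 3.17 to 68.8 ± 0.287 CPM, and Lin28a, an RNA-binding protein gene that blocks let-7 maturation, from 229 ± 6.1 to 165 ± 2.19 CPM. Against these, Fbxo15, an early marker of pluripotent cells, rose from 259 ± 4.2 to 411 ± 0.256 CPM. By edgeR the adjusted p of these 4 ran from 2.1e-11 for Mycn to 6.27e-08 for Zscan10.

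Other naive pluripotency factors moved both ways, as the core factors did. Among 15 tested genes, 6 rose and 4 fell, and 5 did not pass, beside 50.9% called of all tested genes. The median log2 fold change was 0.01. Besides Fbxo15, Tbx3 rose from 332 ± 2.65 to 467 ± 17.3 CPM. Prdm14, a repressor of differentiation genes, fell from 44.1 ± 3.7 to 23.96 ± 0.958 CPM and the nuclear receptor gene Nr5a2 from 85.9 ± 3.62 to 62.2 ± 5.46 CPM (SD, n = 3).

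Of 29 genes for reported protein partners of OCT4 or NANOG, 11 fell, 5 rose and 13 did not pass, a share of called genes near the 50.9% of all tested genes. The median log2 fold change was −0.07. Sall1, a relative of Sall4, fell from 243 ± 8.83 to 182 ± 5.69 CPM, the repressor gene Nacc1 from 240.4 ± 17.1 to 170.2 ± 1.48 CPM, and Trim28, a silencing factor gene, from 1089 ± 33.1 to 785 ± 46.5 CPM. Rbpj, the DNA-binding effector of Notch signalling, rose from 122 ± 1.92 to 208 ± 2.18 CPM (mean ± SD of 3 libraries, adjusted p = 3.97e-11 by edgeR).

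Relatives of the factors were looked up to see whether a paralogue changed beside a member. Of 23 paralogues in the table, 17 passed the filter on low counts. Of those 17, 8 rose, 6 fell and 3 did not pass, where 26.1% of all tested genes rose and 24.8% fell. Among the SOX genes, Sox3 rose from 0.866 ± 0.411 to 3.94 ± 1.43 CPM (log2 fold change 2.19 ± 0.35 SE) and Sox21 fell from 11.9 ± 1.26 to 6.43 ± 0.902 CPM. Both are far below the 469 CPM at which Sox2 remained. Khdc3, a relative of Dppa5a listed in the table as 2410004A20Rik, fell from 36.1 ± 3.9 to 16.3 ± 1.52 CPM (log2 fold change −1.14 ± 0.10 SE).

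Genes downstream of DPPA2 and DPPA4 were also looked up. Of 15 listed, 11 were in the table and 8 passed the filter. Those 8 rose, where 26.1% of all tested genes rose. For 6 of these 8 the filter fixed that direction. They had 0 to 2 control counts in all and entered only through the Rif1-KO-labelled libraries. The count of 8 therefore cannot be read against that share. Zscan4c, a zinc finger gene of 2-cell-like cells, had 1 control count and 135 in the Rif1-KO-labelled libraries, a ratio of 119 (exact 95% interval 21.0 to 4731, for counting error only). For Zscan4d the counts were 2 and 192, for Zscan4f 1 and 114 and for the deubiquitinase gene Dub1 2 and 236. Dux, the transcription factor gene between the DPPA pair and these genes, was left out by the filter. It had no control count and 20 counts in the Rif1-KO-labelled libraries. Against a floor of 3 counts over the control group that is a ratio of 5.87, which leaves out the counting error of the 20. Syce1 and Mael, germline genes read in both groups, both rose. Syce1 went from 14.8 ± 1.49 to 22.1 ± 0.551 CPM, and Mael went from 29.9 ± 1.004 to 38.5 ± 2.04 CPM (mean ± SD of 3 libraries, log2 fold changes 0.59 ± 0.10 and 0.36 ± 0.07 SE). Dux, Syce1 and Mael were named after their values were seen.

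**Figure D5:**
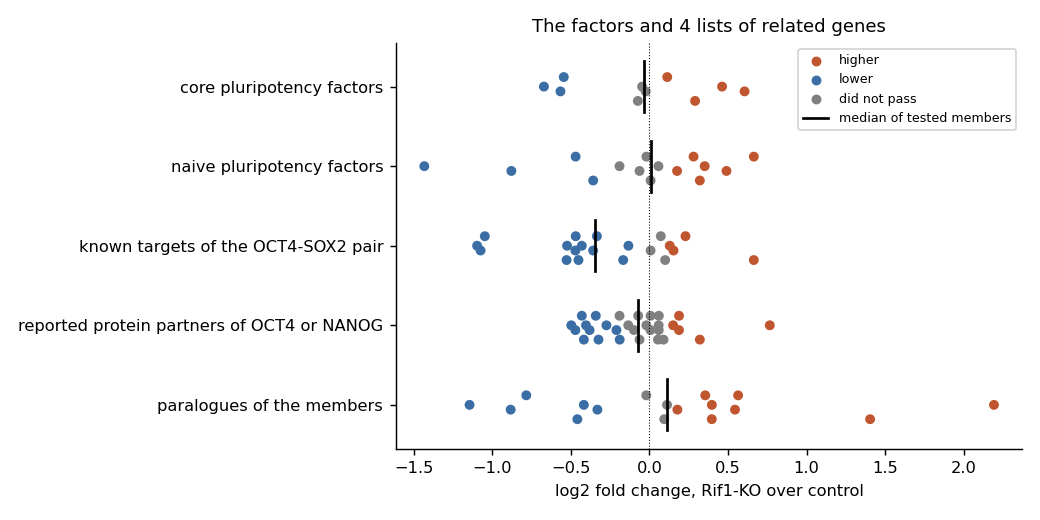
Log2 fold changes of the 10 factors and of the tested members of 4 lists of related genes, 1 point per gene, coloured by call, with a black bar at the list's median. The median of the OCT4-SOX2 targets lies at −0.35 and that of the naive factors at 0.01. Vertical offsets only separate points.

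Markers of the labelled cell type were abundant. The 8 embryonic stem cell markers outside the 10 factors summed to 4482 to 4569 CPM in control and 4731 to 4880 CPM in the Rif1-KO-labelled libraries. Of them, 2 rose, 3 fell and 3 did not pass, where 26.1% of all tested genes rose and 24.8% fell. The same shares stand beside the counts of the marker lists below. The 2 that rose were Tcfcp2l1, from 1501 ± 78.65 to 1875 ± 64.66 CPM, and Fbxo15, and the higher sum rests on them. Both are also in the list of naive factors. Summed levels of 4 other marker lists were higher in each Rif1-KO-labelled library than in each control library, and those of 2 lists overlapped. The 8 primitive endoderm markers summed to 279 to 298 and 539 to 560 CPM, with 6 tested, 6 higher and 0 lower. The 8 trophectoderm markers summed to 148 to 152 and 220 to 234 CPM, with 4 tested, 2 higher and 1 lower, and Cdx2 was at 0 in every library. Formative and primed markers, also 8, summed to 158 to 169 and 192 to 202 CPM, with 7 tested, 2 higher and 4 lower. The 5 neuroectoderm markers in the table summed to 128 to 150 and 152 to 156 CPM, with Neurog2 at 0, yet of 3 tested 1 was higher and 2 were lower, with a median log2 fold change of −0.55. The groups overlapped in the sum of 8 fibroblast markers, at 13.3 to 21.8 and 12.4 to 13.7 CPM, with Lum at 0 and, of 3 tested, 1 higher and 1 lower. They also overlapped in the sum of 6 mesoderm and primitive streak markers, at 11.6 to 14.3 and 10.1 to 11.7 CPM, with 3 tested, 2 higher and 1 lower. Their part in the changes of the 10 factors was not tested.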

How the data were processed

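For each of 6 libraries the authors deposited a table of unnormalized counts over 33924 gene symbols. STAR, featureCounts 1.6.2 and the mouse build mm9 are named in the submitters' processing notes. Annotation, strand setting and the counting of reads with several matches are not given there. Libraries were grouped by their titles. The test was that of edgeR 4.0.16, run under R 4.3.3 (TMM, filterByExpr, quasi-likelihood, group as the only term, all 6 libraries), with Benjamini-Hochberg adjustment over 14250 genes. Alternatives used DESeq2 1.42.0, limma-voom (limma 3.58.1), other scalings, no filter on low counts, a replicate block, a fold of 1.2, an offset for GC content and length (97.8% of tested genes covered) and leaving out each library. Errors are SE for log2 fold changes and SD for CPM, and intervals of fold changes are 95% from the same fit. Exact permutation tests used SciPy 1.17.1. The test was also run on simulated counts in which far fewer genes changed than the 50.9% called here. That run does not check error rates in these data. Lists were matched by symbol or by a current name from RefSeq, and those listed symbols that did not match are not analysed here. Shared stretches and exon lengths come from GENCODE M21, and promoter windows from RefSeq GRCm38.p6. The members and lists were chosen with earlier results of these data known. The rule for named genes gives Rif1, the 10 members and, from each list of related genes, up to 4 with the smallest adjusted p among those that passed. Outside that rule, and chosen after their values were seen, are Sox2ot, Slc2a3, Morc1, Gm12688, Pipox, Exoc1, Nrarp, Dux, Syce1 and Mael. The same holds for the marker genes named and for the genes named as sharing stretches.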

Additional observations from a re-analysis of the deposited data

How the results depend on the processing

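Sox2, Sall4, Utf1, Dppa2 and Dppa5a kept their direction and call in all 15 alternatives. Testing against a fold of 1.2 lowered the count of called genes to 3248 of 14250 (22.8%). It lowered the called naive factors to 6 of 15 and the OCT4 or NANOG partners to 7 of 29. The OCT4-SOX2 targets went down to 11 of 20 and the paralogues to 8 of 17. That setting also ended the calls of Nanog (log2 fold change 0.11, adjusted p = 1) and Dppa4 (0.29, adjusted p = 0.406). Nanog also did not pass with low-count genes kept in (0.11, adjusted p = 0.0603) or once GC content and length were offset (0.054, adjusted p = 0.267), and leaving out 1 library gave 0.091 to 0.13. The same offset turned Pou5f1 to 0.016 (adjusted p = 0.791) and Foxd3 to 0.061 (adjusted p = 0.658), called Zfp281 (−0.17, adjusted p = 0.00339) and moved Rif1 to −0.31 (adjusted p = 2.13e-06). Foxd3 changed sign without control replicate 1 (0.040) or Rif1-KO replicate 3 (0.045), with a range of −0.099 to 0.045 over the 6 left-out libraries. Rif1, which did not pass as reported, passed with RLE scaling (−0.12, adjusted p = 0.0453), upper-quartile scaling (−0.12, adjusted p = 0.0418), limma-voom (−0.12, adjusted p = 0.0264) and no filter (−0.12, adjusted p = 0.0296), and over the left-out libraries ran from −0.17 to −0.094, passing without control replicate 2 (adjusted p = 0.0343) or Rif1-KO replicate 3 (adjusted p = 0.00486). With the replicate block Rif1 was −0.12 (adjusted p = 0.0227) and 7386 genes were called against 7251. The block changed no call among the 10 factors. The deviations of same-numbered libraries correlated at 0.08, −0.06 and 0.05, so the numbers were not taken to pair the samples. The cause of these shifts was not tested. Depth limits Foxd3 and Dppa2, with 125 to 185 and 74 to 154 counts per library.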
